A study of Rattus norvegicus with 18 samples.

Results

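The 10 genes described here encode enzymes that cut the extracellular matrix and the inhibitors that hold them back. They were chosen by gene name from the 18923 genes of the deposited FPKM table (fragments counted on a transcript, divided by its length and by the library's mapped fragments). The choice was made with earlier results of these data known, so it was not blind to them. They are the matrix metalloproteinases Mmp2, Mmp3, Mmp13 and Mmp14, the ADAMTS enzymes (secreted metalloproteinases with thrombospondin motifs) Adamts1 and Adamts9, the serine protease Htra1, and the tissue inhibitors of metalloproteinases Timp1, Timp2 and Timp3. The study asked how RNA and its N6-methyladenosine marks differ with age in the rat nucleus pulposus, the soft hydrated centre of the spinal disc. The groups differ in age, at 2, 10 and 20 months, and the labels name no treatment, strain, sex or genotype. At each age 3 input libraries, made from poly(A) RNA without immunoprecipitation, measured RNA levels, and the 9 libraries made with the m6A antibody are not analysed here. Nothing in the labels ties the 3 libraries of an age to different animals, so every p below speaks to the scatter of these libraries, and that scatter may be technical.

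Metalloproteinases are made as inactive proenzymes, and their activity is set by transcription, by cleavage of the propeptide and by the inhibitors. MMP13 is a collagenase of fibrillar collagen II, MMP3 cuts aggrecan and activates other proenzymes, and MMP2 digests denatured collagen. MMP14 sits in the cell membrane, cuts collagen at the cell surface and, bound to TIMP2, activates the MMP2 proenzyme. ADAMTS1 and ADAMTS9 cleave the large proteoglycans aggrecan and versican. HTRA1 is a secreted trypsin-like protease that digests fibronectin and aggrecan and is not a target of TIMPs. TIMP3 is held in the matrix and also inhibits ADAMTS and ADAM enzymes.

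The 9 libraries held 3.53 to 5.04 gigabases of alignments, a depth worked out by setting FPKM against coverage. The commonest read length, inferred from coverage, was 141 bases at 20 months and 132 bases at 2 and 10 months. The labels name no sequencing run, and the cause of this difference in length was not tested. Whatever its cause, it cannot be told apart from age at 20 months. The labelled tissue showed its markers: of 22 nucleus pulposus and notochord markers 17 were listed, and their summed FPKM lay between 29766 and 31115 at 2 months, 25938 and 26245 at 10 months and 26205 and 27451 at 20 months, although Shh was at 0 in every library at 10 and 20 months. The sum hides falls of single markers. In the test described below, 8 of 12 tested markers were called lower and 0 higher at 10 against 2 months (11.4% and 19.0% of all tested genes). At 20 against 2 months 8 were called lower and 1 higher (49.6% and 18.6%), or 6 and 5 after median-of-ratios scaling (31.2% and 31.1%). One library, replicate 3 of 20 months, stood apart. It had a summed FPKM of 293 over 8 listed skeletal muscle markers, where the other 20-month libraries had 5.88 and 3.71 and the younger ones 19.4 to 32.0. In bulk tissue, fewer cells of a type and less RNA per cell cannot be told apart.

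The 10 genes spanned a wide range of RNA levels, and the order was led by the serine protease and the inhibitors. At 2 months the mean FPKM was 690 ± 6.18 (SD, n = 3) for Htra1, 489 ± 10.2 for Timp3, 314 ± 5.82 for Timp2, 73.8 ± 0.109 for Timp1 and 28.6 ± 0.740 for Mmp14. Adamts9 came next at 1.13 ± 0.0548 FPKM, and Adamts1, Mmp2, Mmp3 and Mmp13 lay under 1 FPKM in every library of 2 and 10 months. From Htra1 down to Adamts9, neighbours in this order did not overlap in any age group. At 20 months the libraries of Adamts9 (0.590, 0.610 and 0.749 FPKM) and Adamts1 (0.583, 0.806 and 0.632 FPKM) overlapped, as did those of Mmp2, Mmp3 and Mmp13. Htra1 ranked between 92 and 96 of the 18923 genes at 2 months, and between 116 and 130 at 20 months.

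**Figure D1:**
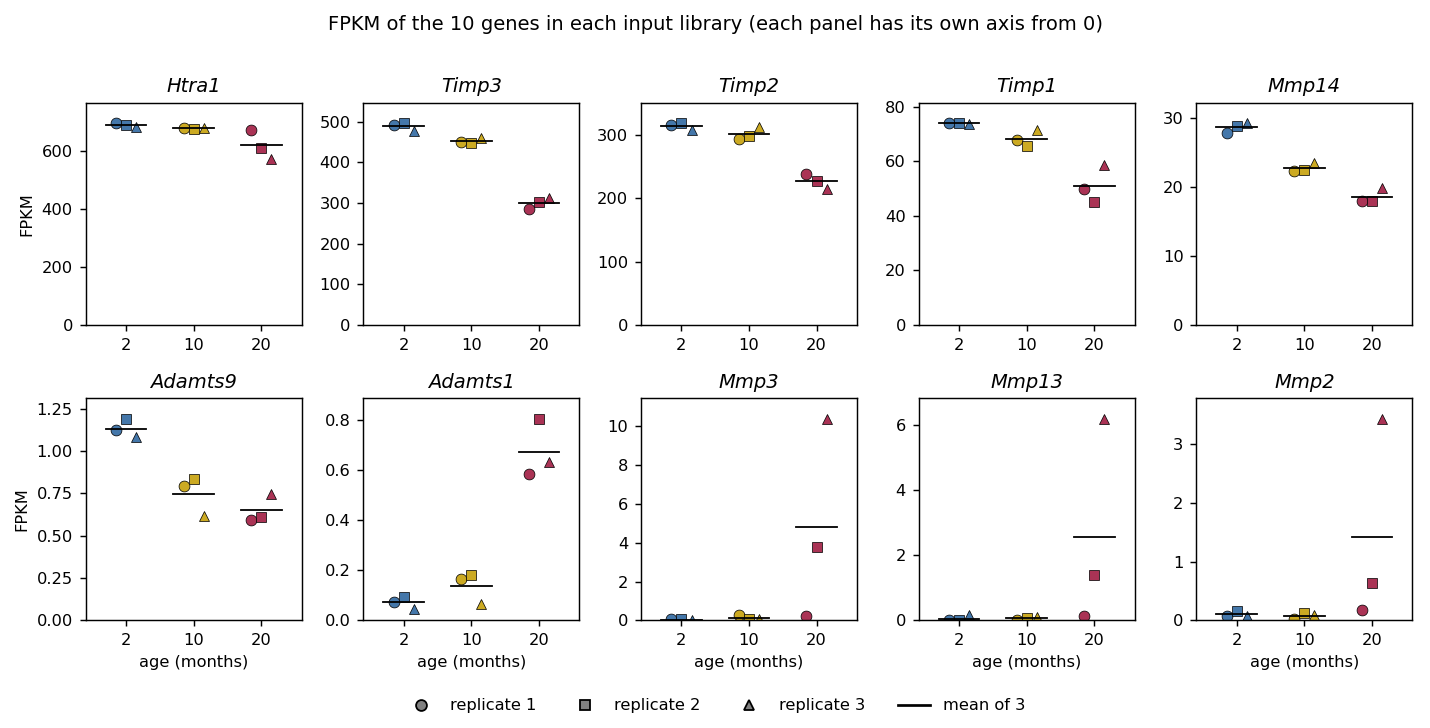
FPKM of each gene (vertical axis, starting at 0 and scaled for each panel) against age in months, with 1 point per input library, a symbol for each replicate and a line at the mean of 3. Timp1, Timp2, Timp3 and Mmp14 are lowest at 20 months in every library, Adamts1 is highest there, and the high values of Mmp2, Mmp3 and Mmp13 belong to replicates 2 and 3 of 20 months.

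Of the 10 genes, 6 passed the filter for testing, which asked for at least 1 FPKM in at least 3 of the 9 libraries: Mmp14, Adamts9, Htra1, Timp1, Timp2 and Timp3. Adamts9 passed through its 3 libraries of 2 months alone, the age at which it is high, so its test and its part in the counts below have little weight. At 20 against 2 months limma called all 6 of these lower and none higher, at a Benjamini-Hochberg adjusted p under 0.05 over the 11708 genes tested. Across those genes 49.6% were called lower and 18.6% higher in that comparison. At 20 against 10 months 5 of the 6 were called lower and none higher, against 53.3% and 11.4% of all tested genes. At 10 against 2 months 3 were called lower and none higher, against 11.4% and 19.0%. Counted by libraries that do not overlap, 6 of the 6 were lower at 20 against 2 months (51.0% of tested genes), 5 at 20 against 10 months (55.3%) and 5 at 10 against 2 months (21.5%). The median change of the 6 in log2(FPKM + 1) was -0.50 at 20 against 2 months, -0.35 at 20 against 10 and -0.11 at 10 against 2, and the median of all tested genes was -0.20, -0.23 and 0.04. With a filter of 5 FPKM, which leaves Adamts9 out, 5 genes were called lower at 20 against 2 months, 5 at 20 against 10 and 2 at 10 against 2. The shares of all genes at that filter are not given here. The comparisons share libraries, so their values are given side by side and are not independent.

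Median-of-ratios scaling, which sets the typical gene to no change, moved the median of all tested genes up by 0.20 at 20 against 2 months and by 0.23 at 20 against 10 months. The change of each of the 6 genes moved up too, that of Adamts9 least (from -0.37 to -0.27 and from -0.08 to 0.03). After it 5 of the 6 genes were called lower at 20 against 2 months, against 31.2% of tested genes lower and 31.1% higher. At 20 against 10 months 2 were called lower and 1 higher after scaling, against 25.7% and 26.8%. At 10 against 2 months 3 were called lower and none higher, against 14.5% and 15.1%. For the 6 genes the changes to 20 months are therefore given as deposited and after this scaling.

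**Figure D2:**
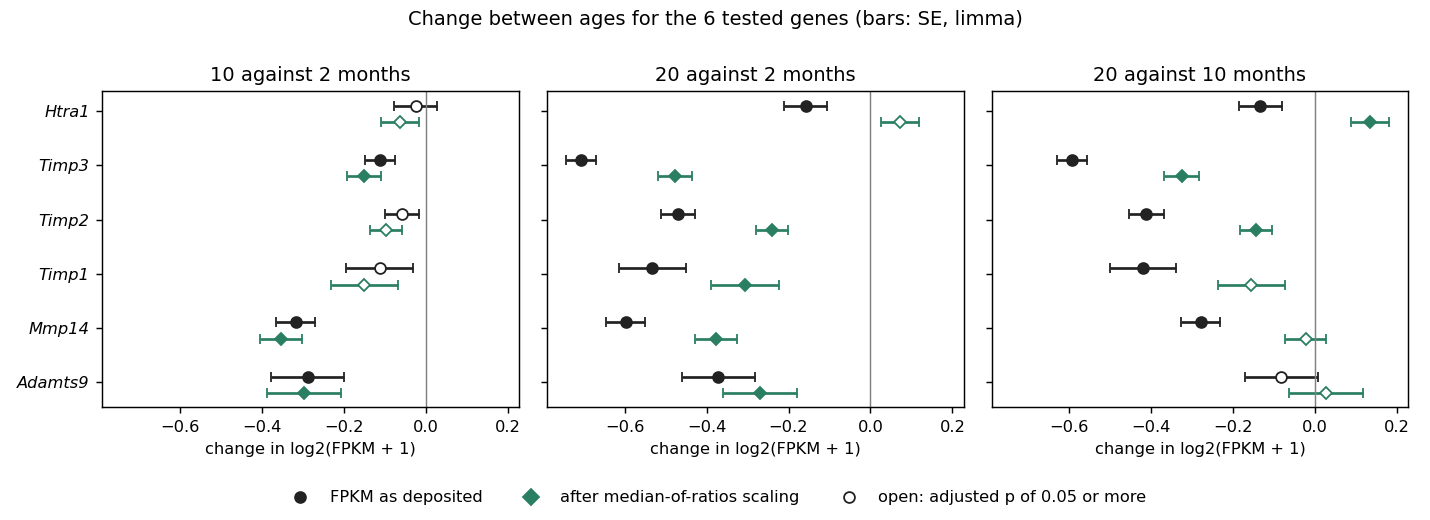
Change in log2(FPKM + 1) with its SE (horizontal axis) for the 6 tested genes in 3 comparisons, as deposited (black circles) and after median-of-ratios scaling (green diamonds), with open symbols where the adjusted p of limma was 0.05 or more. Timp3 lies furthest left at 20 against 2 months on both scales (-0.71 and -0.48), and the symbols fall on opposite sides of 0 for Htra1 in both comparisons of 20 months and for Adamts9 at 20 against 10 months.

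Mmp14 (ENSRNOG00000010947, chromosome 15, 33074441 to 33083655, plus strand; coordinates as deposited, with no genome build given in the sources used here) was the highest of the 4 metalloproteinases in each of the 9 libraries. Its FPKM was 27.8, 28.8 and 29.2 at 2 months, 22.3, 22.5 and 23.5 at 10 months and 18.0, 17.9 and 19.9 at 20 months. As deposited, no age overlapped another, and each older age was lower. Mmp14 fell by 0.32 (SE 0.05) in log2(FPKM + 1) from 2 to 10 months, with an adjusted p of 0.00139 by limma, and by 0.60 (SE 0.05) from 2 to 20 months, with an adjusted p of 6.41e-06. After scaling these changes were -0.35 and -0.38, both called. The step from 10 to 20 months was -0.28 as deposited (limma adjusted p = 8.39e-04) and -0.02 after scaling (adjusted p = 0.729), so the call there rests on the scaling of the libraries. Of the 6 tested genes, Mmp14 was the only one called lower at 10 against 2 months however a single library was left out.

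Mmp3, Mmp13 and Mmp2 stood near the limit of detection in the younger discs, and high values appeared in 2 of the 3 libraries of 20 months. Mmp3, stromelysin 1 (ENSRNOG00000032626, chromosome 8, 5676665 to 5698579, plus strand), had 0.0510, 0.0784 and 0 FPKM at 2 months, 0.266, 0.0473 and 0.0953 at 10 months, and 0.229, 3.78 and 10.4 at 20 months. Replicate 1 of 20 months lay inside the range of 10 months, and only replicates 2 and 3 stood above it. Behind these values were at most 14.9 read equivalents (aligned bases over the read length) in any library of 2 or 10 months, 9.81 in replicate 1 of 20 months, 201 in the second and 618 in the third. The deposited isoform table assigned the 2 high values to the 9-exon transcript ENSRNOT00000091704, at 4.95 and 13.6 FPKM on the transcript scale, and nothing in those libraries to the 21-exon transcript ENSRNOT00000012310. Its close copy Mmp10 (stromelysin 2) showed 0, 0.292 and 1.71 FPKM at 20 months and 0.0477 or 0 in the younger libraries, and reads that the counting could have split between these copies cannot be told apart.

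Mmp13, collagenase 3 (ENSRNOG00000008478, chromosome 8, 5522739 to 5533018, plus strand), was high in the same libraries. It had 0, 0 and 0.154 FPKM at 2 months, 0, 0.0690 and 0.106 at 10 months, and 0.136, 1.39 and 6.20 at 20 months. Replicate 1 of 20 months lay within the range of 2 months. A level of 0 in replicate 1 of 2 months allows up to 0.0302 FPKM, the value of 3 reads, for counting error only. Mmp2, gelatinase A (ENSRNOG00000016695, chromosome 19, 15542765 to 15570611, minus strand), had 0.0704, 0.159 and 0.0809 FPKM at 2 months, 0.0183, 0.123 and 0.0938 at 10 months, and 0.174, 0.638 and 3.44 at 20 months. Its 20-month libraries lay above those of both younger ages, the first by a small margin that rested on 13.4 read equivalents.

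None of these 3 passed the filter. In the fit with no filter, over all 18923 genes, Mmp3 was 1.96 (SE 0.67) higher in log2(FPKM + 1) at 20 against 2 months with a limma adjusted p of 0.0452. That call was lost without replicate 2 of 20 months (adjusted p = 0.121) and without the third (adjusted p = 0.103). Mmp13 (1.36 higher, adjusted p = 0.084) and Mmp2 (0.89 higher, adjusted p = 0.124) were not called by limma with all libraries. In the fit with all libraries 12.2% of genes were called higher. Without replicate 1 of 20 months limma called all 3 higher, and 12.1% of all genes. All 3 were lowest of that age in that library, so leaving it out raises their means and narrows their spread by construction. Those calls therefore lend no support to a rise. The fits that leave out a library with no filter were added after the data were seen.

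Some markers of cells outside the nucleus pulposus were also highest in these libraries, and their part in the result was not tested. Of 10 annulus fibrosus, tendon and fibroblast markers 8 were listed, with a summed FPKM between 16.0 and 17.9 at 2 months and 15.5 and 16.2 at 10 months, and 23.6, 28.2 and 89.2 in the libraries of 20 months, where Tnmd (tenomodulin, a tendon marker) was at 0. Of the 5 tested, limma called 2 higher (Dcn and Prg4) and 2 lower (Col1a1, -1.84, and Scx, -0.72) at 20 against 2 months, with a median of 0.04, so the list did not move as one. Dcn alone made up 66.4 of the 89.2 FPKM. In replicates 1, 2 and 3 of 20 months Dcn (decorin) had 13.8, 19.7 and 66.4 FPKM. Lum (lumican) had 0.334, 1.03 and 6.71, and Comp (cartilage oligomeric matrix protein), which is not on that list, had 2.29, 4.51 and 20.3. Dcn, Lum and Comp were thus highest where Mmp3 was highest. In replicate 1 they also lay above every younger library, which Mmp3 and Mmp13 did not. The skeletal muscle markers differed in replicate 2, where their sum was 3.71, the lowest of all 9, beside 3.78 FPKM of Mmp3. Hypertrophic cartilage and bone markers, 7 of 7 listed, summed to 3392 to 4691 FPKM at 20 months against 6698 to 6777 at 2 months and 4927 to 5150 at 10 months, and Col10a1, Alpl, Sp7 and Bglap were at 0 at 20 months. Only 1 of the 7 passed the filter, so these sums speak for that gene and not for the list. It was called lower at 20 against 2 months as deposited and after scaling, but at 20 against 10 months only as deposited. Of 10 macrophage and neutrophil markers 8 were listed, with sums of 23.1 to 23.7, 25.8 to 27.6 and 23.4 to 25.2 FPKM in order of age, and Ptprc and Itgam were at 0 at 10 and 20 months.

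**Figure D3:**
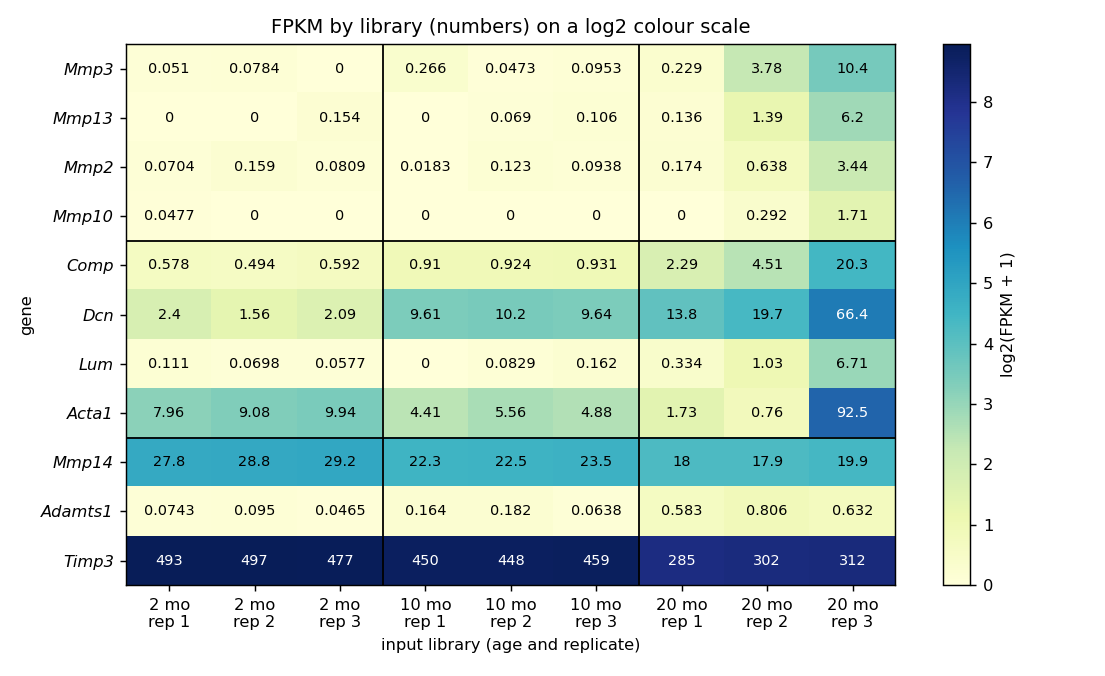
FPKM of 11 genes (rows) in the 9 input libraries (columns, ordered by age and replicate), printed in each cell over a colour scale of log2(FPKM + 1). Mmp3, Mmp13, Mmp2 and Mmp10 are highest in replicates 2 and 3 of 20 months. Comp, Dcn and Lum are highest there too, but they also exceed every younger library in replicate 1, where Mmp3 and Mmp13 do not. The muscle gene Acta1 is high in replicate 3 of 20 months alone (92.5 FPKM), and Mmp14, Adamts1 and Timp3 differ little between the 3 libraries of 20 months.

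The genes that moved together in those libraries and those that moved in all libraries of an age can be compared by the sequence in front of them. RefSeq promoter sequences of the GRCr8 assembly were matched by symbol for 8 of the 10 genes, all but Mmp2 and Mmp14. They were searched on both strands, over the 250 bases before the start, for 4 motifs: the AP-1 site TGAGTCA (reverse TGACTCA), the RUNX site AACCACA (reverse TGTGGTT), the TATA box TATAAA (reverse TTTATA) and the GC box GGGCGG (reverse CCGCCC). Below, 4 of them are printed 5′ to 3′ with these motifs in capitals, the 2 metalloproteinases that were high in the same libraries first, then Adamts1 and Timp3, which differed in all 3 libraries of 20 months.
Mmp3 (chr8:12925031-12925280, plus strand): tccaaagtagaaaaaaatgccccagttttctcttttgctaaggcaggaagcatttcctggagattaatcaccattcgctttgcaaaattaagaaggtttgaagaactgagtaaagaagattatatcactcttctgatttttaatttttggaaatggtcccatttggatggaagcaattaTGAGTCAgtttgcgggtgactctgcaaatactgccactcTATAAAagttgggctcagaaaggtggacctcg
Mmp13 (chr8:12782579-12782828, plus strand): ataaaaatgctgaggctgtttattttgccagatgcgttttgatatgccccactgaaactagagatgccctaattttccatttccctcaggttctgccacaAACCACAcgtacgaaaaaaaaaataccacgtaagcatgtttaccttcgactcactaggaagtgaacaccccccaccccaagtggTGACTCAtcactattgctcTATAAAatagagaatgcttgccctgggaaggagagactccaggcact
Adamts1 (chr11:38427385-38427634, minus strand): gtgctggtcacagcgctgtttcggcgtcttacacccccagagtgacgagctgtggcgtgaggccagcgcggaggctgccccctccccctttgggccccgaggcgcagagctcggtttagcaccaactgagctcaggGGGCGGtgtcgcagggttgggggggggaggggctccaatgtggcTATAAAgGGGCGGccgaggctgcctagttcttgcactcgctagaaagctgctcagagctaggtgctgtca
Timp3 (chr7:19459559-19459808, minus strand): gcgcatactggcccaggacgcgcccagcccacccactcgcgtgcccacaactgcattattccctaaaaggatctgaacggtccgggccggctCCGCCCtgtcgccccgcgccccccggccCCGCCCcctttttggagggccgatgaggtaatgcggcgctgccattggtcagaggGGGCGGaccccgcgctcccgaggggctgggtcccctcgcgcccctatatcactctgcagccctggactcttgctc

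The AP-1 letters stood in Mmp3, 71 bases before the start, and in Mmp13, 66 bases before it, and in none of the other 6 matched genes. They occur in 4.05% of the 33469 RefSeq promoters of that length. AP-1 is the dimer of Fos and Jun proteins, and it is a known regulator of these collagenase and stromelysin genes. The RUNX letters stood in Mmp13 alone, 150 bases before the start (4.59% of promoters), and the TATA letters in Mmp3, Mmp13 and Adamts1 (12.9%). The GC box, bound by Sp1, stood in Adamts1, Adamts9, Timp1, Timp2 and Timp3 (30.5%). These matches describe letters in a window and do not show binding.

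Adamts1 (ENSRNOG00000001607, chromosome 11, 25342126 to 25350974, minus strand) was the one gene of the 10 that was higher in all 3 libraries of 20 months than in all younger ones by a wide margin. Its FPKM was 0.0743, 0.0950 and 0.0465 at 2 months, 0.164, 0.182 and 0.0638 at 10 months and 0.583, 0.806 and 0.632 at 20 months. The libraries of 2 and 10 months overlapped, and no library of 20 months reached down to either. Its values rested on between 7.39 and 15.1 read equivalents at 2 months, 9.57 and 28.7 at 10 months and 64.2 and 110 at 20 months. It stayed under 1 FPKM throughout and so was tested only in the fit with no filter, where it was 0.64 (SE 0.06) higher in log2(FPKM + 1) at 20 against 2 months with a limma adjusted p of 6e-05. At 20 against 10 months it was 0.56 (SE 0.06) higher, with a limma adjusted p of 1.81e-04, and 7.28% of genes were called higher there. Leaving out any single library of 20 months kept both calls, with limma adjusted p-values of at most 3.94e-04 and 9.35e-04. Unlike Mmp3, its highest value was in replicate 2 of 20 months, not in replicate 3.

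Adamts9 (ENSRNOG00000023257, chromosome 4, 124660262 to 124858250, minus strand) ran the other way. It had 1.12, 1.19 and 1.08 FPKM at 2 months, 0.795, 0.836 and 0.615 at 10 months, and 0.590, 0.610 and 0.749 at 20 months. All libraries of 2 months were above all others, and those of 10 and 20 months overlapped. Adamts9 passed the filter only through its libraries of 2 months, so its calls against 2 months carry little weight. It fell by 0.29 (SE 0.09) in log2(FPKM + 1) from 2 to 10 months, with a limma adjusted p of 0.0377, and by 0.37 (SE 0.09) from 2 to 20 months, with an adjusted p of 0.00485. Between 10 and 20 months the change was -0.08, with a 95% interval from -0.28 to 0.12, and 0.03 after median-of-ratios scaling. The call at 10 against 2 months was lost when any single library of those ages was left out, with a limma adjusted p of up to 0.12, and quantile normalization ended the call at 20 against 2 months (adjusted p = 0.132).

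Htra1 (ENSRNOG00000020533, chromosome 1, 201499028 to 201548513, plus strand) had the highest level of the 10. Its FPKM was 697, 689 and 685 at 2 months, 679, 677 and 679 at 10 months, and 675, 612 and 572 at 20 months. The ages did not overlap, but replicate 1 of 20 months lay just under those of 10 months and the spread at 20 months (SD 51.6) was far above that at 10 (SD 1.18). The change from 2 to 20 months was -0.16 in log2(FPKM + 1), with a limma adjusted p of 0.022, and it turned to 0.07 after median-of-ratios scaling (adjusted p = 0.205). At 20 against 10 months it was -0.13 as deposited (limma adjusted p = 0.0465) and 0.13 after scaling (adjusted p = 0.0355), called in opposite directions. Quantile normalization gave -0.42 (limma adjusted p = 4.35e-05) at 20 against 2 months and -0.34 (adjusted p = 2.84e-04) at 20 against 10 months. Its direction at 20 months therefore depends on the scaling. At 10 against 2 months the change was -0.02, with a 95% interval from -0.14 to 0.09. Leaving out replicate 1 or 2 of 2 months, or replicate 2 of 20 months, also ended the call at 20 against 2 months, with limma adjusted p-values of 0.0626, 0.0525 and 0.0562. The call at 20 against 10 months was lost without any single library other than replicate 1 of 20 months, with a limma adjusted p of up to 0.117.

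As deposited, the 3 inhibitors were lower at 20 months than at either younger age, in every library. Timp3 (ENSRNOG00000004303, chromosome 7, 23544215 to 23594133, minus strand) had 493, 497 and 477 FPKM at 2 months, 450, 448 and 459 at 10 months, and 285, 302 and 312 at 20 months. The ages did not overlap, and the gap between 10 and 20 months was the widest. Its mean at 20 months was 0.612 of that at 2 months. It fell by 0.71 (SE 0.04) in log2(FPKM + 1) from 2 to 20 months, with a limma adjusted p of 6.27e-07, and by 0.59 (SE 0.04) from 10 to 20 months, with an adjusted p of 3.55e-06. After scaling these were -0.48 (adjusted p = 1.37e-05) and -0.33 (adjusted p = 2.45e-04). The smaller change of -0.11 at 10 against 2 months had a limma adjusted p of 0.0487, and it was lost without any single library of those ages or replicate 2 of 20 months, with a limma adjusted p of up to 0.145.

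Timp2 (ENSRNOG00000003148, chromosome 10, 107338465 to 107386072, minus strand), the partner of MMP14 in the activation of MMP2, had 316, 319 and 308 FPKM at 2 months, 294, 299 and 313 at 10 months, and 238, 228 and 215 at 20 months. The libraries of 2 and 10 months overlapped, and those of 20 months lay below both. Timp2 fell by 0.47 (SE 0.04) in log2(FPKM + 1) from 2 to 20 months, with a limma adjusted p of 1.28e-05, and by 0.41 (SE 0.04) from 10 to 20 months, with an adjusted p of 4.29e-05. After scaling the changes were -0.24 (adjusted p = 6.07e-04) and -0.14 (adjusted p = 0.013). At 10 against 2 months it was -0.06, with a 95% interval from -0.15 to 0.04.

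Timp1 (ENSRNOG00000010208, chromosome X, 1364786 to 1369384, minus strand), the inhibitor that is often induced by cytokines, had 73.9, 73.9 and 73.7 FPKM at 2 months, 67.8, 65.7 and 71.3 at 10 months, and 49.7, 44.9 and 58.6 at 20 months. The ages did not overlap as deposited. After median-of-ratios scaling replicate 3 of 20 months (66.2) lay above replicates 1 and 2 of 10 months (63.1 and 61.2). Timp1 fell by 0.53 (SE 0.08) in log2(FPKM + 1) from 2 to 20 months, with a limma adjusted p of 3.4e-04, and by 0.42 (SE 0.08) from 10 to 20 months, with an adjusted p of 0.00165. After scaling these were -0.31 (adjusted p = 0.00987) and -0.16 (adjusted p = 0.141), so the second call was lost. Replicate 3 of 20 months, which held the highest Mmp3, Mmp13 and Mmp2, also held the highest Timp1 and Timp3 of that age and the lowest Timp2.

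Ratios within a library do not depend on how that library was scaled, and they carry no test here. The summed FPKM of Timp1, Timp2 and Timp3 ran from 859 to 889 at 2 months, from 812 to 843 at 10 months and from 572 to 585 at 20 months. The summed FPKM of the 4 metalloproteinases was 27.9, 29.0 and 29.5 at 2 months, 22.6, 22.7 and 23.8 at 10 months, and 18.5, 23.7 and 39.9 at 20 months. As a percent of the inhibitors the metalloproteinases made 3.16, 3.27 and 3.43 at 2 months, 2.78, 2.80 and 2.82 at 10 months, and 3.24, 4.13 and 6.82 at 20 months. The ratio was lowest at 10 months, where no library reached those of the other ages. At 20 months the value of replicate 1 lay inside the range of 2 months, and those of replicates 2 and 3 lay above it.

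The Mmp14 part of that ratio showed no such spread. It was 3.15, 3.24 and 3.40% of the inhibitors at 2 months, 2.75, 2.77 and 2.78% at 10 months, and 3.14, 3.12 and 3.40% at 20 months, so that 2 and 20 months overlapped. The share of Mmp2, Mmp3 and Mmp13 in the metalloproteinase RNA was 0.435 to 0.816% at 2 months, 1.05 to 1.26% at 10 months, and 2.92, 24.5 and 50.2% in the libraries of 20 months. Among the inhibitors, Timp3 over Timp2 was 1.55 to 1.56 at 2 months and 1.20, 1.32 and 1.46 at 20 months, below every library of 2 months. Htra1 over Timp3 was 1.39 to 1.43 at 2 months, 1.48 to 1.51 at 10 months, and 2.37, 2.03 and 1.83 at 20 months, above both younger ages in every library.

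**Figure D4:**
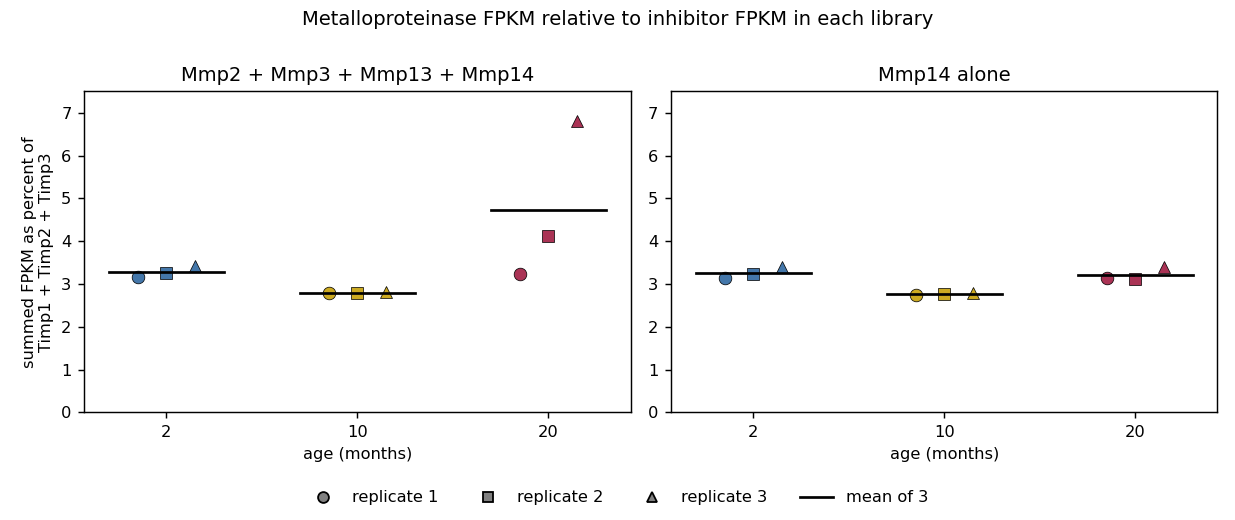
Summed FPKM of Mmp2, Mmp3, Mmp13 and Mmp14 (left) and FPKM of Mmp14 alone (right) as percent of the summed FPKM of Timp1, Timp2 and Timp3 (vertical axis from 0), against age in months, with 1 point per library and a line at the mean of 3. The 20-month values spread from 3.24 to 6.82% on the left and from 3.12 to 3.40% on the right.

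Other genes of the same families and of their control were read from fixed lists in the same fit. Their counts at 20 against 2 months are to be read against 49.6% of all tested genes called lower and 18.6% called higher, or 31.2% and 31.1% after median-of-ratios scaling. Of 18 other MMPs 11 were listed and 4 tested, and 2 of the 4 (against 49.6%) were called lower and 0 higher (against 18.6%) at 20 against 2 months. These were Mmp15 and Mmp19. Mmp15, another membrane-type enzyme, had 15.9, 16.9 and 15.2 FPKM at 2 months, 8.96, 8.82 and 8.64 at 10 months and 2.49, 2.10 and 2.02 at 20 months. It fell by 2.41 (SE 0.07) in log2(FPKM + 1) from 2 to 20 months, with a limma adjusted p of 2.69e-08. Mmp15 over Mmp14 ran from 0.519 to 0.588 at 2 months, from 0.368 to 0.401 at 10 months and from 0.101 to 0.139 at 20 months, with no overlap between ages. Mmp19 fell by 0.92 (SE 0.07). Mmp9, the gelatinase of osteoclasts and neutrophils, was near the limit of detection throughout. It had 0.0162, 0.0448 and 0.0170 FPKM at 2 months and 0 in every library of 10 and 20 months.

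The other ADAMTS and ADAMTS-like genes, 20 of 22 listed and 5 tested, were called higher in 4 cases (against 18.6% of all tested genes) and lower in 0 (against 49.6%) at 20 against 2 months. Adamtsl5 rose by 0.49 (SE 0.06) and Adamts10 by 0.43 (SE 0.09), at limma adjusted p-values of 5.21e-05 and 0.0025. The main aggrecanases were below the filter: Adamts4 had between 0 and 0.0695 FPKM at 2 months, 0.0515 and 0.103 at 10 months and 0.248 and 0.336 at 20 months, and Adamts5 was at or under 0.111 in all 9 libraries. Adamts4 thus lay higher in all libraries of 20 months, as Adamts1 did. Of 5 tested membrane-bound ADAMs (8 of 9 listed) 4 were called lower (against 49.6%) and 1 higher (against 18.6%) at 20 against 2 months, and 3 and 1 after scaling. Adam17, the tumour necrosis factor sheddase and a target of TIMP3, fell by 0.74 (SE 0.06), and Adam33 rose from 4.50 ± 0.276 to 19.6 ± 1.93 FPKM (SD, n = 3), with a limma adjusted p of 1.09e-07.

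Reck, a membrane-anchored inhibitor of MMP14 and MMP2, had 21.6 to 23.9 FPKM at 2 months and 21.0 to 21.2 at 20 months. Its change of -0.11 was not called (limma adjusted p = 0.0519). That change was less negative than the median of all tested genes (-0.20), which median-of-ratios scaling moved up by 0.20. The direction of Reck at 20 months therefore depends on the scaling. Among 20 genes for activation and clearance, all listed and 14 tested, 4 were called higher and 6 lower at 20 against 2 months, shares near the 18.6% and 49.6% of all tested genes. Plat, which makes plasmin from plasminogen, fell by 1.61 (SE 0.11), and Furin, which removes the propeptide of MMP14, fell by 0.41 (SE 0.06). Bsg, the MMP inducer basigin, was the most abundant of them and fell by 0.58 (SE 0.04), whereas Lrp1, the receptor that clears several of these enzymes and TIMP3, rose by 0.16 (SE 0.05), each with a limma adjusted p under the threshold. Every gene said to have risen or fallen in these lists kept its direction and its call after median-of-ratios scaling.

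**Figure D5:**
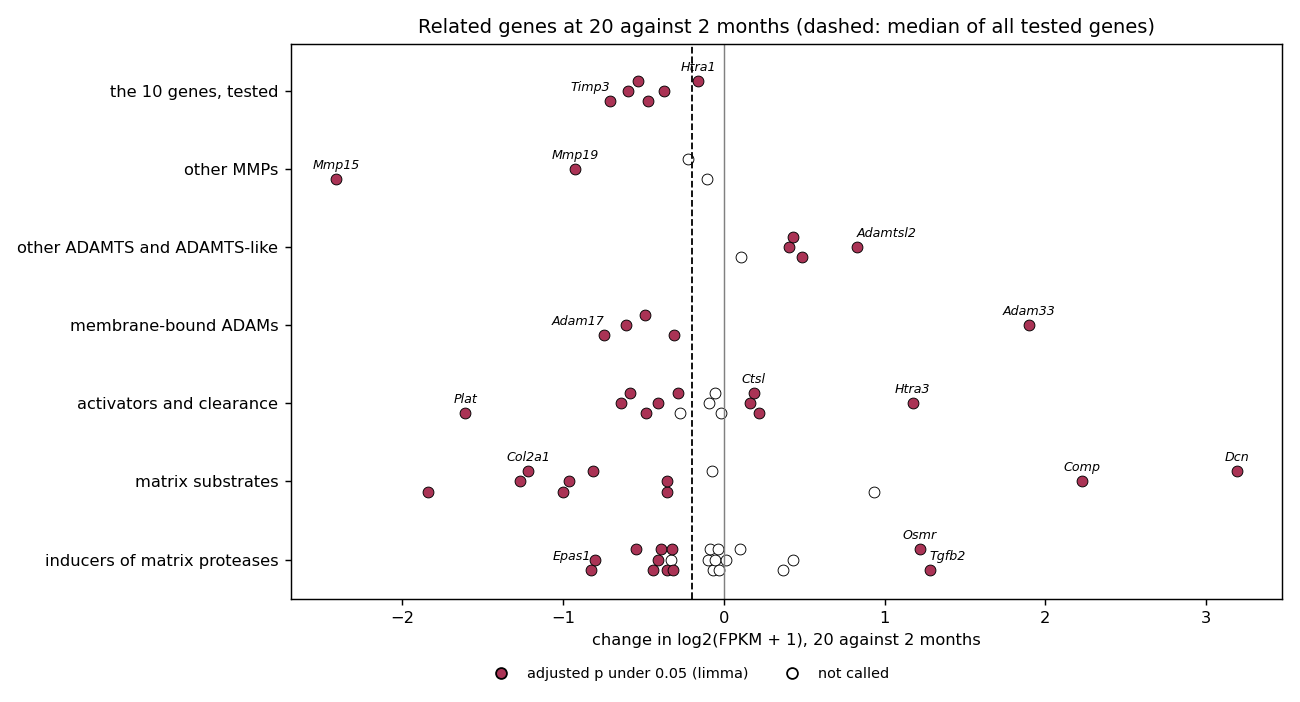
Change in log2(FPKM + 1) at 20 against 2 months (horizontal axis) of each tested gene of 7 groups, in rows by gene list, filled where limma called it at an adjusted p under 0.05 and open where it did not, with small vertical offsets so that points can be seen. The dashed line marks the median of all tested genes (-0.20). The 6 tested genes described here lie between -0.71 and -0.16, other MMPs between -2.41 and -0.10, and the other ADAMTS genes all above 0.

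The genes whose pattern over the 9 libraries was most like that of the leading gene of each role are given as a description, by Pearson's r of log2(FPKM + 1) over the 9 libraries. All points share the step between 20 months and the younger ages, and with it the step in read length. For Timp3 the nearest gene was Fam120a (r = 0.999), for Mmp14 LOC100362814 (r = 0.994), for Htra1 Vps8 (r = 0.984) and for Adamts9 Vps41 (r = 0.971).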

How the data were processed

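The 10 genes and all gene lists were chosen with earlier results of these data known. Per the labels, poly(A) RNA of nucleus pulposus was fragmented and input libraries were made without immunoprecipitation. Per the submitters' processing notes the tools were edgeR, DESeq2, StringTie 1.3.4d, HISAT2 2.0.4 and cutadapt 1.9, with no role stated. The deposited tables give FPKM per gene and per transcript and, by the file headers, a coverage signal per transcript that keeps the library's depth. Build, annotation and strandedness: not given in the sources used here. The tables give no counts, so depth was taken from FPKM over coverage, and read equivalents from coverage times length over the commonest read length. A gene was tested if 3 or more of the 9 libraries reached 1 FPKM. The test was limma 3.58.1 (R 4.3.3, trend option) on log2(FPKM + 1), in 1 fit over the 3 ages. Fold changes are on that scale, which understates changes of low genes. P-values were Benjamini-Hochberg adjusted over all 11708 tested genes in each contrast, and genes were called under 0.05. The fit was tested on simulated data. Genes under the filter are values without a test, except where the fit with no filter is named.

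The rule for named genes was as follows. All 10 genes are given. From each related list come, per contrast, up to 3 called genes with the smallest adjusted p and the member with the highest mean FPKM, and less telling ones were left out. The list of other inhibitors is not reported here beyond Reck. Mmp9, Mmp10, Adamts4, Adamts5, Adamts10, Reck, Furin, Lrp1, Fos, Jun, Junb, Fosl2, Acan, Dcn, Comp and Lum were named after their values were seen. Alternatives were other pseudocounts (0.1 and 5), no filter and a filter of 5 FPKM, median-of-ratios scaling, quantile normalization, fits on 2 ages, array weights, a replicate block and leaving out each library. Leaving out each library of 20 months with no filter was added after the data were seen.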

Additional observations from a re-analysis of the deposited data

How the results depend on the processing

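Over the alternatives 329 values kept direction and side of the threshold, 40 lost the call, 2 gained one and 4 reversed. After median-of-ratios scaling the log2 change of Htra1 turned to 0.072 at 20 against 2 months and 0.13 at 20 against 10 months, and that of Adamts9 to 0.028 at 20 against 10 months. Quantile normalization turned the last to 0.22. Median-of-ratios scaling left 2 genes lower and 1 higher at 20 against 10 months, in place of 5 and 0. Of all tested genes 25.7% were lower and 26.8% higher after it, in place of 53.3% and 11.4%. With no filter, which tests more genes, 2 were higher at 20 against 2 months and 1 at 20 against 10 months. The shares of all genes there were 12.2% and 7.28%. Leaving out single libraries of 20 months in that fit gave 1 to 4 in both comparisons. The 4 came without replicate 1, in which Mmp2, Mmp3 and Mmp13 were lowest of that age, and lend no support to a rise. Without that replicate 12.1% of all genes were called higher at 20 against 2 months. At 10 against 2 months 1 to 3 genes were called lower over the leave-one-out fits. It was 1, Mmp14, without any single library of 2 or 10 months and 3 with all libraries, where 11.4% of all tested genes were called lower. Shares of all genes in the other leave-one-out fits are not given here. With the replicate number as a block, 1 gene was lower at 10 against 2 months. Over all genes this block gave 3185 calls in place of 3551 at 10 against 2, 7859 in place of 7986 at 20 against 2 and 7467 in place of 7576 at 20 against 10 months. Deviations of same-numbered libraries correlated between -0.04 and 0.05, and those of differently numbered ones between -0.07 and 0.06. These values show no pairing by number, but with 3 libraries per age they could miss a small shared effect. Where the cause of a lost call is not the setting's own construction, the cause was not tested. The planned test of isoform use and its alternatives were not run, since Mmp3 alone has more than 1 listed transcript and lies under that test's minimum.

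Depth limits Mmp2, Mmp3, Mmp13 and Adamts1, which rest on few reads at 2 and 10 months. With 3 libraries per age a single library of 20 months decided calls of Mmp2, Mmp3 and Mmp13, whereas Adamts1 stayed called without any one of them.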

Other observations

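Among genes that encode substrates of these enzymes, 20 of 23 were listed and 12 tested, and limma called 8 lower and 2 higher at 20 against 2 months, against 49.6% and 18.6% of all tested genes. Col2a1, the collagen II chain that MMP13 cuts, had between 299 and 311 FPKM at 2 months, 112 and 116 at 10 months and 111 and 152 at 20 months, so most of its change lay between 2 and 10 months. Acan, the aggrecan core protein, had a mean of 1202 ± 15.3 FPKM (SD, n = 3) at 2 months, 871 ± 12.0 at 10 months and 1148 ± 95.4 at 20 months, called lower at 10 against 2 and higher at 20 against 10 months. Sparc fell by 1.27 (SE 0.04) in log2(FPKM + 1) from 2 to 20 months. The 2 substrates called higher were Dcn and Comp. Comp was under 1 FPKM in every library of 2 and 10 months. It passed the filter only through its libraries of 20 months, the age at which it is high. Its call and its part in this count therefore carry little weight. Dcn and Lum are also on the list of fibroblast markers, and Acan and Col2a1 on that of the nucleus pulposus.

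Genes known to induce matrix proteases, 29 of 33 listed and 22 tested, were called lower in 9 cases and higher in 2 at 20 against 2 months, against 49.6% and 18.6% of all tested genes. After median-of-ratios scaling these were 6 and 7, against 31.2% and 31.1%. Il1a, Il1b, Il6 and Tnf are not analysed here. Tgfb2 rose by 1.28 (SE 0.06) in log2(FPKM + 1), from 24.1 to 24.4 FPKM at 2 months to 54.6 to 65.3 at 20 months, with a limma adjusted p of 3.62e-07. Osmr, the receptor chain for oncostatin M, rose by 1.22 (SE 0.11), from 0.865 to 0.884 FPKM at 2 months to 2.80 to 4.21 at 20 months. Both were also called higher at 10 against 2 months. Osmr was under 1 FPKM in every library of 2 months and passed the filter only through older libraries. Its calls against 2 months therefore carry little weight. The AP-1 genes Fos (0.43, adjusted p = 0.103), Jun (-0.10, adjusted p = 0.553), Junb (0.37, adjusted p = 0.0603) and Fosl2 (0.01, adjusted p = 0.901) were not called by limma at 20 against 2 months. After median-of-ratios scaling Fos (0.65) and Junb (0.59) were called higher there. The scaled values of Jun and Fosl2 are not given here, nor are the other AP-1 genes of the list, Fosb, Fosl1 and Jund. The named ones were picked after their values were seen, so they do not speak for AP-1 genes as a group.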
